A study of Homo sapiens with 5 samples.

Results

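MYC and 9 other genes with short-lived transcripts (JUN, JUNB, JUND, FOS, FOSB, EGR1, IER2, IER3 and ATF3) were taken as 1 group and followed in a microRNA pull-down. The members are a list of gene names, selected on earlier results of these same arrays in which MYC stood out as lower, and every probe annotated to 1 of them was used. Of the 10 genes, 7 had a probe among the 11184 probes of the deposited table, with 8 probes in all, and they are 7 of the 8127 genes tested. JUNB, FOS and FOSB had no probe in that table and were not measured. HEK293T, a kidney-derived human embryonic line expressing SV40 large T antigen, was profiled on Illumina expression arrays in 2 groups: 2 miR-182 pull-down arrays (pull-down 1 and 2), from cells that received the biotin-tagged duplex of miR-182-5p, and 3 mock arrays (mock 1 to 3), from cells labelled as mock-transfected. The protocols, shared by all samples, give 200 pmol of duplex and a harvest after 24 h, followed by capture on streptavidin beads. The pull-down field of the mock samples nevertheless reads "none", so the microRNA and the bead capture cannot be told apart in the comparison, and the labels do not say that replicate arrays came from separate cultures.

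Immediate early genes are transcribed within minutes of a growth signal or a stress, without new protein synthesis, and many of their mRNAs are degraded as quickly because of AU-rich elements in their tails. MYC is a helix-loop-helix factor that drives growth and proliferation, the JUN and FOS proteins pair through leucine zippers to form the factor AP-1, and EGR1 is a zinc finger factor induced through serum response factor. A microRNA loaded on Argonaute holds its targets mainly through its seed, bases 2 to 8, so a transcript bound by tagged miR-182 should be retained on the beads. The question put to the arrays was which mRNAs miR-182 holds.

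The tagged microRNA is shown with the human microRNAs that share bases 2 to 7 with it, because those bases set which transcripts it can pair with. Sequences run 5′ to 3′, and capitals mark bases 2 to 8. They are from RefSeq on GRCh38.p14, and of 2545 mature entries only the 3 below share bases 2 to 7. The last seed base differs between miR-182-5p and the other two.
hsa-miR-182-5p: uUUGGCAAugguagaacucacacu
hsa-miR-96-5p: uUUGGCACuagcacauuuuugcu
hsa-miR-1271-5p: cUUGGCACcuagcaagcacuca
The miR-182-5p sequence lies at chr7:129770447-129770470 on the minus strand. Pairing of its seed with the transcripts of the members was not analysed here.

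All levels are the authors' deposited log2 values, and each difference on that scale is the pull-down value minus the mock value. The lowest value of an array lay between 8.0 and 8.04, and differences of probes close to it are compressed. Within 0.1 of its lowest value, an array had 14.9% to 15.4% of its probes if it was a pull-down array, and 19.9% to 26.7% if it was a mock array. Array medians were 8.80 and 8.81 in the pull-down, against 8.72 to 8.79 in the mock. Of 10 genes listed as expressed in HEK293 lines, 8 were measured. Among them the filament gene VIM was at 13.40 ± 0.51 in the pull-down (SD, n = 2) and at 13.52 ± 0.11 in the mock (SD, n = 3). CDH2, a cadherin, was called lower (by the rule given below) with a pull-down mean of 11.17 ± 0.12 and a mock mean of 12.12 ± 0.08, and the transcription factor gene SOX11 was called higher, with a pull-down mean of 8.997 ± 0.028 and a mock mean of 8.11 ± 0.07. The mock mean of SOX11 was near the lower limit. The other 6 were not called, and the keratin gene KRT18 was at the lower limit, at 8.03 in the pull-down and 8.08 in the mock. KRT8 (8.30 and 8.40) and NEFL (8.28 and 8.13) were close to it. NEFM was at 8.94 and 8.87, and ENO2 at 9.07 and 8.60. An array reads each transcript relative to the RNA applied. Fewer cells with a transcript, less of it per cell and less of it captured on the beads therefore cannot be told apart.

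MYC was the only one of the 7 measured members past the threshold of the fit over all genes. MYC was far lower in the pull-down, while JUND, ATF3 and EGR1 had higher values there, JUN overlapped between the groups, and IER2 and IER3 had lower values at or near the lower limit. A gene was called at a Benjamini-Hochberg adjusted p under 0.05 in limma, fitted over all 8127 genes. By that rule 1 member was lower, 0 were higher and 6 were not called, while 15.0% of all genes were called lower, 20.2% higher and 35.1% either way. The differences of the 7 members had a median of 0.10, against 0.02 for all genes. Both pull-down arrays lay below all mock arrays for 3 members (MYC, IER2 and IER3), as for 30.1% of all genes. They lay above all mock arrays for 3 members (JUND, ATF3 and EGR1), as for 35.0% of all genes. Since the members were chosen from results of this contrast, these counts and the values below are a description, and no p-value is given for a member.

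**Figure D1:**
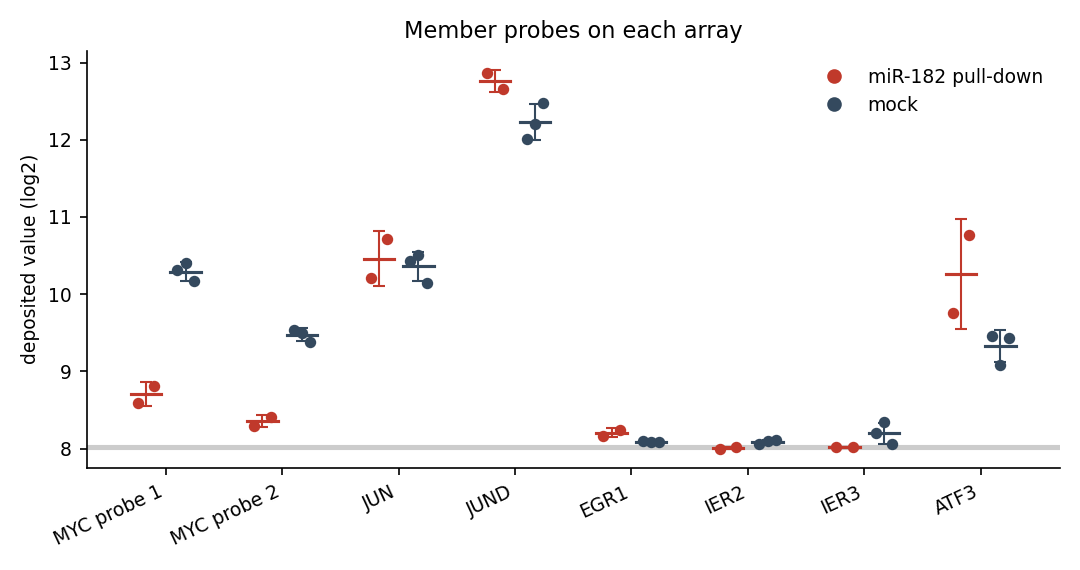
Deposited log2 values of the 8 member probes (y axis) on each array, with 2 miR-182 pull-down arrays in red left of 3 mock arrays in dark blue. Points are arrays, horizontal bars are group means, error bars are SD, and the grey band is the range of the lowest value on the 5 arrays. Both MYC probes are lower on both pull-down arrays, at 8.71 against 10.29 and at 8.35 against 9.47 on average, and IER2, IER3 and EGR1 lie on or just above the band.

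MYC had 2 probes, both annotated to the same transcript record. The first read 8.60 and 8.82 on pull-down 1 and 2, against 10.32, 10.40 and 10.17 on mock 1, 2 and 3. The 2 groups were far apart, with a gap many times the spread within either. The mean was 8.71 ± 0.16 in the pull-down (SD, n = 2) and 10.29 ± 0.12 in the mock (SD, n = 3), a log2 difference of -1.59 (SE 0.11) or a pull-down to mock ratio of 0.333. Against the mock mean, pull-down 1 alone had a difference of -1.70 and pull-down 2 alone one of -1.48.

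The second MYC probe gave the same direction with a smaller difference. It read 8.30 and 8.41 on the pull-down arrays, against 9.54, 9.50 and 9.38 on the mock arrays. Its difference was -1.12 (SE 0.08), a ratio of 0.460. In the pull-down this probe was only 0.35 above the lowest value of the arrays, against 1.45 in the mock, whereas the first probe was 0.71 above it in the pull-down and 2.27 in the mock. Differences are compressed that close to the limit, and the part of this in the gap between the probes was not tested. Of the 8127 genes, 81 had a difference at or below that of the first MYC probe, MYC itself included.

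**Figure D2:**
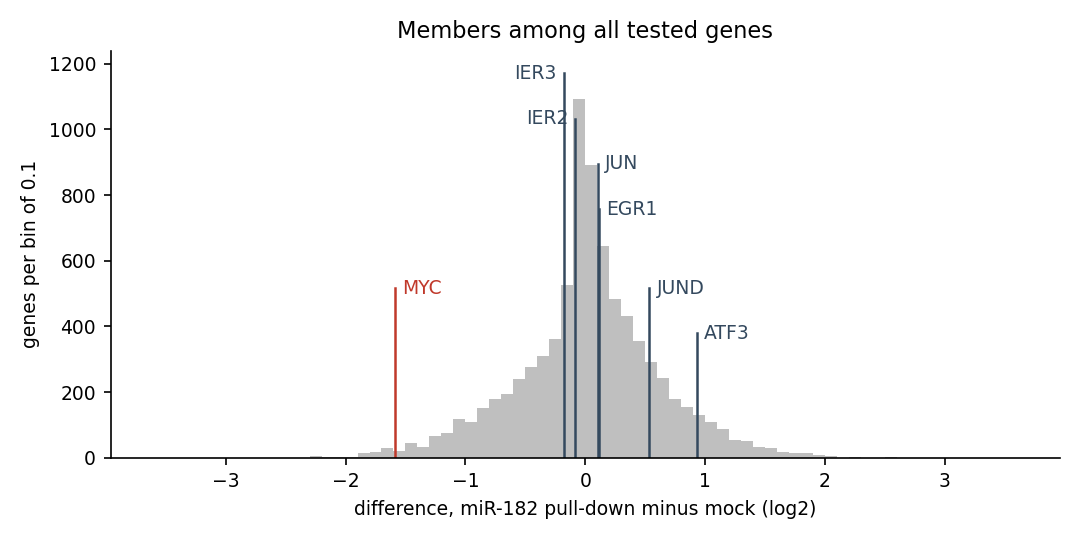
Number of genes (y axis) per bin of 0.1 of the log2 difference, pull-down minus mock (x axis), over the 8127 genes tested. Vertical lines of arbitrary height mark the 7 measured members, with MYC, the only called one, in red at -1.59, and the others between -0.18 for IER3 and 0.93 for ATF3.

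By the root mean square distance between array profiles, each centred on its own mean over the 5 arrays, the genes closest to MYC were RPL13AP3 (0.052 log2 units), SQSTM1 (0.057), RPL13AP6 (0.066), GANAB (0.067) and EIF4A3 (0.080). Genes whose symbols start with LOC, HS. or KIAA were left out of this ranking. SQSTM1, which encodes an autophagy receptor, read 9.68 and 9.80 in the pull-down, against 11.42, 11.52 and 11.17 in the mock. EIF4A3, an RNA helicase of the exon junction complex, read 10.94 and 11.24 in the pull-down, against 12.67, 12.72 and 12.71 in the mock. GANAB, a glucosidase subunit of the endoplasmic reticulum, was close to the lower limit in the pull-down, at 8.08 and 8.30, against 9.82, 9.98 and 9.54 in the mock. RPL13AP3 and RPL13AP6 are annotated as pseudogenes of RPL13A, whose transcript their probes may share, and their values are uncertain for that reason.

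The AP-1 genes with a probe were JUN and JUND, and neither was lower. JUN, the founding AP-1 subunit, read 10.21 and 10.71 on pull-down 1 and 2, against 10.43, 10.51 and 10.15 on the mock arrays. The groups overlapped, and the 2 pull-down arrays lay on either side of the mock mean. The difference of 0.10 (SE 0.20) was smaller than the spread within the pull-down (10.46 ± 0.36, SD, n = 2) and within the mock (10.36 ± 0.19, SD, n = 3).

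JUND, a JUN relative that is present in resting cells and often acts against proliferation, had higher values in the pull-down. It read 12.86 and 12.66 there, against 12.01, 12.20 and 12.47 in the mock. The groups did not overlap, but mock 3 came within 0.2 log2 units of pull-down 2. The difference was 0.54 (SE 0.16), a ratio of 1.45, and its adjusted p did not pass the threshold. Without mock 3 it was 0.66, and JUND was called.

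ATF3, a stress-induced leucine zipper factor that also pairs with JUN proteins, had the highest difference of the 7 members. It read 9.76 and 10.77 on pull-down 1 and 2, against 9.47, 9.09 and 9.43 on the mock arrays. Both pull-down arrays lay above all mock arrays, and they were also a full log2 unit apart from each other. The difference of 0.93 (SE 0.33), a ratio of 1.91, was not called. The SD of 0.71 between the pull-down arrays was matched or exceeded by 42 of the 8127 genes (0.517%), ATF3 included. With pull-down 2 alone the difference was 1.44 and ATF3 was called, and with pull-down 1 alone it was 0.43 and ATF3 was not called.

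EGR1, IER2 and IER3 had too little signal for a comparison. On average over the arrays of a group, all 3 lay within 0.25 of the lowest array value in both groups, as did 17.6% of all genes. IER3 on mock 2 alone was further above it, at 8.34 against a lowest value of 8.04. EGR1 read 8.17 and 8.25 in the pull-down, against 8.10, 8.08 and 8.09 in the mock, a difference of 0.12 (SE 0.06). IER2, a small nuclear immediate early protein, read 8.002 and 8.02 in the pull-down, against 8.07, 8.10 and 8.11 in the mock, a difference of -0.08 (SE 0.05). These arrays did not overlap, yet the values span about 0.1 log2 units at the lower limit, and another scaling moved both differences by more than their SD between replicates. IER3, a survival factor induced by NF-kappaB, read 8.02 on both pull-down arrays, against 8.20, 8.34 and 8.06 on the mock arrays. Its difference of -0.18 (SE 0.10) has a pull-down side at the limit, where a larger decrease could not be seen.

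**Figure D3:**
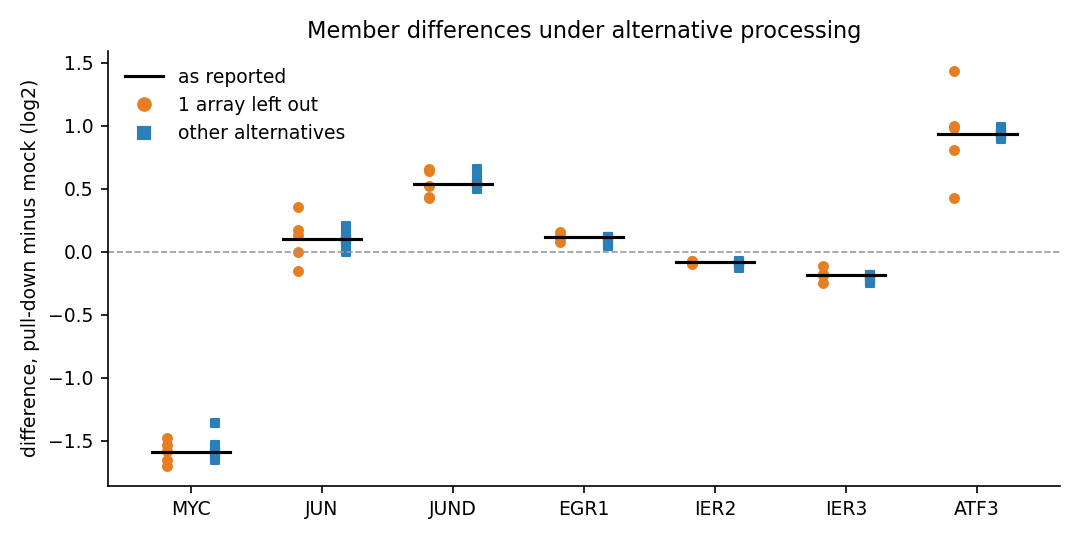
Log2 difference, pull-down minus mock (y axis), of the 7 measured members under alternative processing. Black bars are the values as reported, orange points leave out 1 array each and blue squares are the other alternatives. MYC stays between -1.70 and -1.35, JUN crosses 0, and ATF3 spreads from 0.43 to 1.44.

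MYC was called lower under each of 13 alternatives, which left out arrays in turn or changed the scaling, the probe rule, the filter or the variance model. Its difference ranged from -1.70 without pull-down 2 to -1.35 with both probes averaged. JUN was called under none of them and ranged from -0.15 without pull-down 2 to 0.35 without pull-down 1. It was also below 0, at -0.0036, without mock 3. The replicate block gives the same differences as that fit by design, since replicate 3 holds only mock 3. JUND and ATF3 stayed above 0 in every alternative, at 0.43 to 0.66 for JUND and 0.43 to 1.44 for ATF3, and each was called in 3 of 13. MYC was picked for its large difference on these same arrays, so this is no separate evidence for it.

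Among the motifs searched in the members' promoters, the CArG box was found only in EGR1 and the cyclic AMP element only in JUND. The 2 stretches that hold them are shown. RefSeq promoters on GRCh38.p14, from 250 bases before to 50 bases after the start, were matched for 8 of the 10 members. MYC and IER3 had no matched promoter and were not searched. Stretches are printed 5′ to 3′ on the strand of the gene. Both strands were searched for TATAAA, the AP-1 site TGACTCA, the cyclic AMP element TGACGTCA, the E-box CACGTG, the EGR site GCGGGGGCG and the CArG box of serum response factor. These motifs do not overlap in the members' windows. The 60-base stretch of EGR1 (chr5:138465359-138465418, plus strand) has 2 CArG boxes in capitals, which begin 105 and 83 bases before the start. The stretch of JUND (chr19:18281783-18281842, minus strand) has the cyclic AMP element in capitals, 200 bases before the start.
EGR1: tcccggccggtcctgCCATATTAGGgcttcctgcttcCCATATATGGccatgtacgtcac
JUND: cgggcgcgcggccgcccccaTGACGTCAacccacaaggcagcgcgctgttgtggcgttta
Of 27305 promoters, 1.29% held a CArG box and 1.98% the cyclic AMP element. The TATAAA motif was found in 3 members, FOS, JUNB and FOSB, and in 12% of all promoters. JUN, IER2 and ATF3 held none of the motifs. The AP-1 site, the E-box and the EGR site were found in 0 of the 8 members, and in 4.92%, 7.43% and 5.02% of all promoters. A match is a description of these letters and was not set against the arrays.

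Other immediate early and short-lived transcripts had more lower than higher calls. Of 51 listed genes 31 were measured, and 10 were called lower (32.3%, against 15.0% of all genes), 3 higher (9.68%, against 20.2% of all genes) and 18 neither, with a median difference of -0.16. DUSP1, a phosphatase that switches off MAP kinases, was at 9.42 ± 0.34 in the pull-down (SD, n = 2) and 10.66 ± 0.38 in the mock (SD, n = 3), a difference of -1.24 (SE 0.28, adjusted p = 0.0283 by limma with Benjamini-Hochberg adjustment). CCN1, a secreted matrix protein, had a difference of -1.02 (SE 0.17, limma, adjusted p = 0.0139), and ID3, an inhibitor of helix-loop-helix factors, one of -0.998 (SE 0.14, limma, adjusted p = 0.0100). The related ID2 (-0.81) and ID1 (-0.59) were also called lower; both were named after their values were seen, and the second ID1 probe, at the lower limit, gave -0.04. The 3 genes called higher, also named after the fact, were the kinase gene PIM1 (0.77), the phosphatase gene DUSP5 (0.77) and the nuclear factor gene CSRNP1 (0.60). PIM1 was near the lower limit in the mock, with a mean of 8.19.

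The number of lower calls in that list depended on single arrays. It was 3 without pull-down 1, 1 without pull-down 2, 5 without mock 1, 6 without mock 2 and 9 without mock 3, and 2 to 3 genes were called higher. DUSP1 had adjusted p-values of 0.129, 0.0622, 0.0883 and 0.0796 in limma without pull-down 1, pull-down 2, mock 1 and mock 2. CCN1 and ID3 lost their calls without pull-down 1 (limma adjusted p = 0.0764 and 0.0549) and without pull-down 2 (0.0557 and 0.0516), as did ID1 (0.0906 and 0.0516). CSRNP1 had an adjusted p of 0.0503 in limma without pull-down 2, while ID2, PIM1 and DUSP5 were called in each of these 5 fits.

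**Figure D4:**
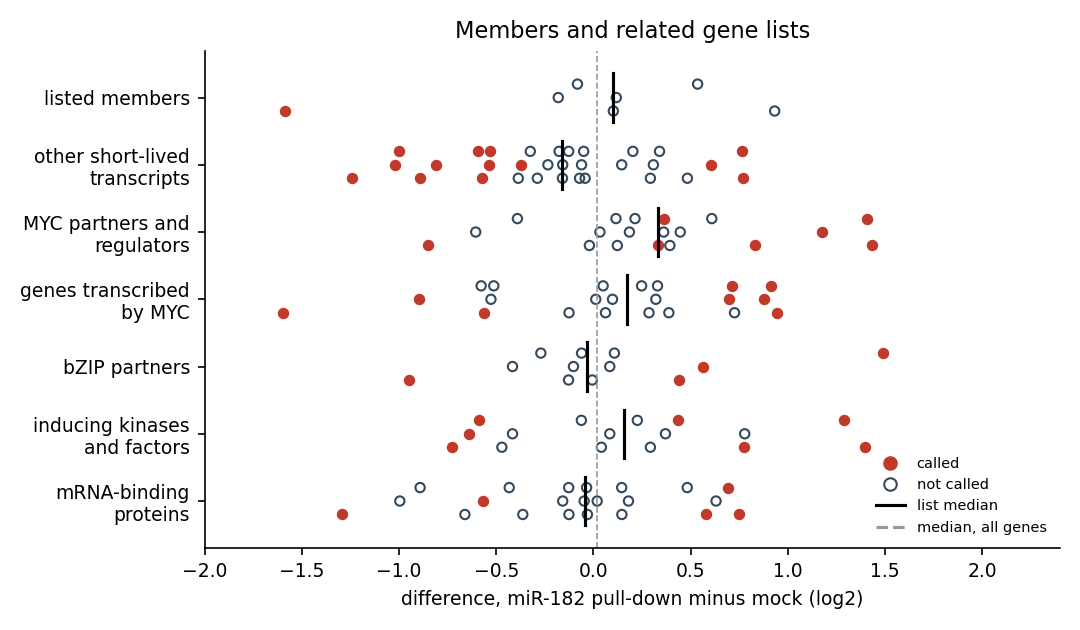
Log2 difference, pull-down minus mock (x axis), of the 7 measured members (top row) and of the measured genes of 6 related lists. Each point is a gene, filled red where called and open where not, black bars are list medians and the dashed line is the median of all genes at 0.02. The members spread from -1.59 to 0.93, and the list medians lie between -0.16 and 0.33.

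Partners of MYC and regulators of the MYC protein had more higher than lower calls. Of 19 measured genes 6 were called higher (31.6%, against 20.2% of all genes), 1 lower (5.26%, against 15.0%) and 12 neither, with a median of 0.33. RUVBL1, an ATPase of MYC cofactor complexes, was at 11.49 ± 0.45 in the pull-down (SD, n = 2) and 10.06 ± 0.08 in the mock (SD, n = 3), a difference of 1.43 (SE 0.20) with 1.42 at its other probe. The ubiquitin ligase gene HUWE1 had a difference of 1.41 (SE 0.17). SKP2, which encodes the substrate adaptor of another ligase that targets MYC, had a difference of 1.18 (SE 0.18), with 1.61 and 0.58 at its other probes. Adjusted p-values of the 3 were 0.00962, 0.00654 and 0.0116 (limma, Benjamini-Hochberg), and each call held with any array left out. MAX, the obligate dimer partner of MYC, had a difference of 0.45 (SE 0.18) and was not called. With 1 array left out, 4 to 6 genes of the list were higher, 4 of them without pull-down 1 or mock 2, and the 1 lower call was present only without mock 2.

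Genes known to be transcribed by MYC were split. Of 22 measured, 5 were called higher (22.7%), 3 lower (13.6%) and 14 neither, shares close to those of all genes, with a median of 0.17 that was -0.05 without pull-down 2. PTMA, which encodes prothymosin alpha, had a difference of -1.60 (SE 0.28, limma, adjusted p = 0.0158) and was not called without pull-down 1 (0.0731), pull-down 2 (0.0782) or mock 2 (0.0573). The nucleoside diphosphate kinase gene NME1 had a difference of 0.91 (SE 0.08, limma, adjusted p = 0.00427), with 1.94 and 0.51 at its other probes. FBL, the methyltransferase fibrillarin, had one of 0.94 (SE 0.21, limma, adjusted p = 0.0291), which passed only without mock 2 when arrays were left out, at 0.067 to 0.134 otherwise. Higher calls numbered 3 without pull-down 1, 2 without pull-down 2, 2 without mock 1, 4 without mock 2 and 3 without mock 3. Lower calls numbered 1 without pull-down 1 or mock 2, and were 2 or 3 without any other single array.

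Among 12 measured leucine zipper partners of JUN and FOS, 3 were called higher, 1 lower and 8 neither, with a median of -0.03. The shares were 25% higher and 8.33% lower, against 20.2% and 15.0% of all genes. ATF4, the main factor of the integrated stress response and an inducer of ATF3, had a difference of 1.49 (SE 0.13, limma, adjusted p = 0.00413), and its other probes gave 2.50 and, at the lower limit, -0.08. CEBPB (-0.95, SE 0.19) was lower and CEBPG (0.57, SE 0.12) higher, with limma adjusted p of 0.0222 and 0.0233. CEBPB was called only without mock 3, and CEBPG only without pull-down 2, when arrays were left out, with adjusted p of 0.0634 to 0.105 and 0.0504 to 0.0790 in the other fits. The list had 1 higher call with any mock array left out and 2 without either pull-down array. It had 0 lower calls without pull-down 2, mock 1 or mock 2.

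Of 16 measured kinases and factors that induce immediate early genes, 4 were called higher, 3 lower and 9 neither, with a median of 0.16. These shares, 25% higher and 18.75% lower, were near the 20.2% and 15.0% of all genes. ELK1, a partner of serum response factor at serum response elements, read 11.12 and 11.35 in the pull-down, against 9.93, 9.91 and 9.66 in the mock (difference 1.40, SE 0.13, limma, adjusted p = 0.00426). MAP2K4 and MAPK8, consecutive kinases of the JNK cascade that phosphorylates JUN, had differences of 1.29 (SE 0.21) and 0.77 (SE 0.13), with limma adjusted p of 0.0129 and 0.0133. MAPK9, the other JNK gene measured, was called lower, with a difference of -0.73 (SE 0.12, limma, adjusted p = 0.0127), and with -0.14 at its other probe. It was not called without pull-down 1 (0.0503) or pull-down 2 (0.0650). The other MAP2K4 probe gave 0.46, and MAP2K4 had an adjusted p of 0.0566 in limma without pull-down 1. Serum response factor itself, SRF, had a difference of 0.29 (SE 0.11) and was not called. Lower calls numbered 1 without pull-down 2, 3 without mock 3 and 2 without any other single array.

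Of 22 measured proteins that bind AU-rich elements or the MYC mRNA, 3 were called higher, 2 lower and 17 neither, with a median of -0.04. Both shares, 13.6% higher and 9.09% lower, were below the 20.2% and 15.0% of all genes. SYNCRIP, part of a complex that stabilises MYC mRNA through its coding region, had a difference of -1.29 (SE 0.16, limma, adjusted p = 0.00769). ELAVL1, which stabilises AU-rich mRNAs, had one of 0.69 (SE 0.10, limma, adjusted p = 0.0102). Its mean was 8.87 in the pull-down and, near the lower limit, 8.17 in the mock. PCBP2, which binds C-rich tracts, had a difference of 0.75 (SE 0.13, limma, adjusted p = 0.0145) with 1.17 at its other probe. PCBP2 was not called without pull-down 1 (0.0772) or pull-down 2 (0.0578). ZFP36, a protein that speeds the decay of AU-rich mRNAs, was near the lower limit, at 8.24 in the pull-down and 8.10 in the mock. Higher calls in the list were 1 without pull-down 1 or pull-down 2, 2 without mock 1 or mock 2 and 5 without mock 3. Lower calls were 1 without pull-down 1 or mock 1, 2 without pull-down 2 or mock 2 and 3 without mock 3.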

How the data were processed

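Values are the log2 values the authors deposited for 5 arrays. That they are in base 2 was judged from their range. Lumi 2.2.1 appears in the submitters' processing notes without a stated role, and how background, scaling and filtering were handled is not recorded in those notes. A second table of unnormalized signals was not used, because its 10 value columns carry no name that matches a sample label. Probes were named through a platform annotation with symbols updated by Entrez identifier: 10040 had 1 symbol, 1 had several and 1143 had none. The probe with the highest mean stood for each of 8127 genes. The test was limma 3.58.1 under R 4.3.3 (lmFit, then eBayes, group only, 3 residual and 1.61 prior degrees of freedom, Benjamini-Hochberg adjustment over all genes), and the fit was tested on simulated data. The spread behind each p-value is that between arrays and may be technical, and the number of arrays limits the precision. Members and lists were chosen with earlier results of these data known. Named genes are all members, up to 3 called genes with the largest difference per list, and the 5 profile neighbours of MYC given above. MAX, SRF, ZFP36, MAPK9, ID1, ID2, PIM1, DUSP5, CSRNP1 and the markers VIM, KRT18, CDH2 and SOX11 fall outside this rule and were named after their values were seen. The 6 lists were written by hand and share some genes. Alternatives were 3 scalings, 2 probe rules, a filter at a mean of 9, an intensity trend, a replicate block and leaving out each array.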

Additional observations from a re-analysis of the deposited data

How the results depend on the processing

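The fold of MYC kept its direction and its call in all 13 alternatives. With genes under a mean of 9 left out, only 3831 genes were tested, 4 members among them. Of the 3831 genes, 954 were called higher and 1116 lower. Of the 4 members, 2 were called higher (JUND and ATF3) and 1 lower (MYC). With an intensity trend in the prior, 3 members were higher (JUND, EGR1 and ATF3) and 2 lower (MYC and IER2). Calls rose over all 8127 genes as well, to 2055 higher and 1421 lower, against 1640 and 1215 as reported. Leaving out 1 array gave 958 to 1379 genes higher, 638 to 1205 lower, 0 to 1 members higher and 1 member lower. Of these, 958 and 638 were without pull-down 1, 674 lower without pull-down 2 and 989 higher without mock 2. These fits have fewer samples, and without 1 pull-down array the remaining one is assumed to vary like the mock arrays. The median difference of the members ran from -0.089 (without pull-down 2) to 0.157 (without pull-down 1) with an array left out, and was -0.0036 without mock 3. With the replicate number as a replicate block this median had to be the same as without mock 3, the only array of replicate 3. The block fit called 1289 genes higher and 1132 lower. In it 6 genes of the short-lived list were lower, and 3 genes transcribed by MYC were higher. The deviations of same-numbered arrays correlated with r = 0.020 and 0.071 over probes. With 2 pull-down arrays the deviations of one mirror those of the other. These values therefore cannot show whether same-numbered arrays share a culture or a day, which the labels do not state. Under the block CCN1 (limma adjusted p = 0.0506) and FBL (0.0941) lost their calls. At a mean of at least 9, the short-lived list had 14 genes tested, 1 higher and 5 lower, MYC partners had 2 lower and mRNA-binding proteins 5 lower, against 4 lower under the intensity trend and 1 lower after cyclic loess. The higher calls were 57.4% of all calls as reported and 46.1% at a mean of at least 9. Signal near the lower limit, and not only the number of arrays, limits what EGR1, IER2 and IER3 can show.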
